A study of Mus musculus with 4 samples.

Results

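Heat shock proteins and their co-chaperones were followed through a single-nucleus RNA sequencing table of mouse kidney cortex. They were represented by 10 genes of 19609 in the table, chosen by name and not by a cut on measured values: *Hsp90aa1*, *Hsp90ab1*, *Hspa1a*, *Hspa1b*, *Hspa5*, *Hspa8*, *Hsph1*, *Dnaja1*, *Dnajb1* and *Bag3*. All 10 had a row, and each row held 1 average for each of 23 clusters in each of 4 mice, 92 values in all. The 4 male mice, of mixed strain, were 1 control (genotype TRE-hKLF6, no injury), 1 control given AAI, 1 hKLF6OE mouse (genotype CAG-rtTA,TRE-hKLF6, no injury) and 1 hKLF6OE mouse given AAI. AAI is aristolochic acid I, a plant toxin that damages DNA in proximal tubule (PT) cells. It was given once at 2 mg/kg, kidneys were taken 24 hours later, and every mouse, controls included, ate doxycycline at 200 mg/kg of diet for 1 week beforehand. The CAG promoter drives the doxycycline-dependent activator in all cell types, so human KLF6, a zinc finger transcription factor, was induced globally and not in tubules alone. Induction of the human transgene was not analysed here.

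The members form a folding relay. HSP70 proteins bind unfolded stretches of client proteins, J-domain proteins bring clients to them and trigger ATP hydrolysis, and nucleotide exchange factors such as HSP110 and BAG3 release the client, which may then pass to HSP90 for maturation. Some members are made in nearly every cell (HSC70, the product of *Hspa8*, and HSP90 beta, the product of *Hsp90ab1*), whereas others are induced by heat, toxins or misfolded protein through heat shock factor 1 (*Hspa1a*, *Hspa1b*, *Hsp90aa1*, *Hsph1*, *Dnajb1*, *Bag3*). BiP, the product of *Hspa5*, serves the endoplasmic reticulum (ER) and is induced by the unfolded protein response. In the kidney, HSP70 and HSP90 are best known for protecting tubule cells after ischemic and toxic injury.

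Values are the authors' cluster averages, on a scale on which each column of the table sums to 10000. With 1 mouse per group there was no replicate error, and no test was run. Between 2 averages, a gene was called higher or lower when log2(value + 1) differed by at least 0.2. The larger value also had to be at least 0.5. In the main comparisons, counts of members called are given with the percentage of all genes called the same way, where that was computed. The share of genes at 0, which rises as fewer nuclei are averaged, ran from 15.1% to 23.1% over the normal PT clusters of the 2 uninjured mice and reached 63.4% in the Macrophage cluster of the control mouse given AAI. The mitochondrially encoded share of a column was higher in the uninjured hKLF6OE mouse than in the other 3 mice in 23 of 23 clusters, and it was lower after AAI in 22 clusters of the control mice and in 23 of the hKLF6OE mice. *Kap*, an abundant androgen-regulated proximal tubule transcript, was at 40.7 or more in every non-PT cluster of the uninjured control mouse.

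InjuredPT-A and InjuredPT-B are the injured proximal tubule clusters, and their summed injury markers were high in the AAI mice only. The sum of 8 such markers in InjuredPT-A reached 36.8 with AAI in the control genotype and 32.9 with AAI in hKLF6OE. It rested mostly on *Polr2a* and *Klf6* (means over the 4 mice 12.6 and 3.69). The study named *Polr2a* as the most raised gene of this cluster. *Havcr1* and *Krt20* were highest in InjuredPT-B, with means over the 4 mice of 0.382 and 0.395. In the uninjured mice the sum in InjuredPT-A was 2.26 and 1.27, close to the 1.62 and 1.65 of PT-S3-1. There, 6 and 3 of the 8 markers were at 0 in InjuredPT-A. The summed value of 7 endothelial markers in the InjuredPT-A columns was 5.30 and 5.88 without injury and 1.18 and 1.72 with AAI. The uninjured InjuredPT-A columns also had 62.6% and 40.8% of genes at 0 and mitochondrial shares of 6.22% and 7.69%. InjuredPT-A was therefore compared with normal PT (the mean of the 5 normal PT clusters) within each AAI mouse. The uninjured InjuredPT-A columns were not used in that comparison. They enter the listed values of members, the survey of all 23 clusters and the correlations over all columns. They also enter where the AAI and uninjured mice are set side by side cluster by cluster.

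The DNA around the starts of the members was searched for the letters that heat shock factor 1 reads, inverted repeats of GAA spaced by 2 bases. RefSeq windows of 250 bases before to 50 after the transcription start (GRCm38.p6) were found for 7 of the 10 members. None was used for *Hsp90aa1*, *Hsp90ab1* and *Hspa8*. A repeat of 3 units (GAANNTTCNNGAA or its reverse complement TTCNNGAANNTTC) occurred in 0.603% of 32851 windows of all genes, and among the members in *Hsph1* alone, just downstream of its start. A repeat of 2 units (GAANNTTC or TTCNNGAA, each its own reverse complement, and each also counted inside a longer repeat) occurred in 15.1% of all windows and in *Hspa1a*, *Hspa1b*, *Hsph1*, 1 of 3 windows of *Dnaja1*, and *Bag3*, but not in either window of *Dnajb1*. The ER stress element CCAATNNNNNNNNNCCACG, searched on both strands, occurred in 0.119% of all windows and in *Hspa5*. The stretches that hold these letters are printed on the gene's strand, with the match in capitals.
Hspa1a (chr17:34972231-34972282, minus strand): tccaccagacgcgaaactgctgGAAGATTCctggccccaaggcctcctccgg
Hspa1b (chr17:34959313-34959364, minus strand): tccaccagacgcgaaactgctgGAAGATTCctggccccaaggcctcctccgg
Hsph1, upstream of the start (chr5:149636351-149636380, minus strand): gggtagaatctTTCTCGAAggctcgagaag
Hsph1, downstream of the start (chr5:149636280-149636308, minus strand): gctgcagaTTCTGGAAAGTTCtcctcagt
Dnaja1 (chr4:40722333-40722362, plus strand): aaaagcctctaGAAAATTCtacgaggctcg
Bag3 (chr7:128523614-128523632, plus strand): ggatgggaccaGAAGTTTC
Hspa5 (chr2:34772020-34772048, plus strand): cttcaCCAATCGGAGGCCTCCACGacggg
A match is a description of letters and says nothing about binding in these nuclei. *Hspa1a* and *Hspa1b* held the same stretch at the same distance from their starts, and their 300-base windows were identical at 296 bases. Of 50-base stretches of the *Hspa1a* transcript, 58.8% also occurred in *Hspa1b*, although none in the last 500 bases did. How reads from the shared stretches were handled was not examined, so the separate values of these copies are uncertain.

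HSP90 is the chaperone that finishes the folding of kinases and steroid receptors, and its inducible form is encoded by *Hsp90aa1* (chr12:110690605-110702728, minus strand, GRCm38, up to 11 exons). In normal PT, *Hsp90aa1* stood at 0.399 in the control mouse, 0.474 in the control mouse with AAI, 0.482 in the hKLF6OE mouse and 0.461 in the hKLF6OE mouse with AAI. In InjuredPT-A it stood at 1.99 and 3.35 in the control and hKLF6OE mice with AAI, and at 2.70 and 0.928 in the uninjured mice. The 4 normal PT values lay within a narrow band, and both InjuredPT-A values with AAI were above it. The uninjured InjuredPT-A values come from the sparse columns described above. The difference between InjuredPT-A and normal PT on the log2(value + 1) scale was 1.02 in the control and 1.58 in the hKLF6OE mouse with AAI. By the smaller of these it ranked 182 of 5008 genes. In InjuredPT-B the gene was at 0.689 and 0.899 in the AAI mice, differences of 0.20 (just under the threshold) and 0.38. The normal PT mean of *Hsp90aa1* was under the minimum of 0.5 in both AAI mice, so against normal PT it could be called only in the higher direction.

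The constitutive form is encoded by *Hsp90ab1* (chr17:45567775-45573271, minus strand, up to 11 exons). Its normal PT level was 1.52 in the control mouse, 1.34 in the control with AAI, 2.09 in hKLF6OE and 1.02 in hKLF6OE with AAI. The uninjured hKLF6OE mouse was highest and the same genotype with AAI was lowest. InjuredPT-A values were 2.52 and 2.66 with AAI, differences of 0.59 and 0.86 from normal PT, and 4.49 and 8.15 without injury. In the AAI mice its highest cluster was MC, which the study names mesangial cells, at 3.81 and 3.77, above InjuredPT-A. MC also had the highest mitochondrial share of all clusters in these mice (2.90% and 3.00%).

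**Figure D1:**
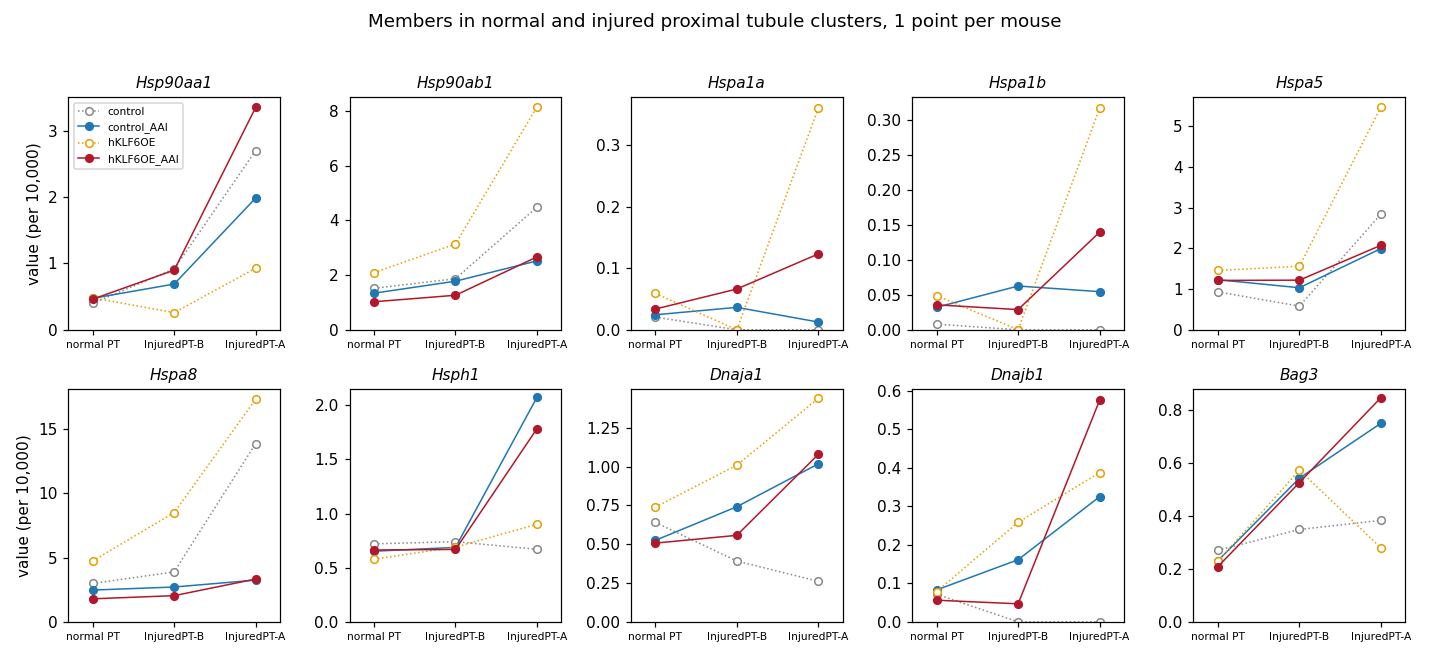
Average value per 10,000 (vertical axis) of each member in normal PT, InjuredPT-B and InjuredPT-A (horizontal axis), with 1 point and line per mouse (filled, solid: AAI; open, dotted: uninjured). *Hsph1*, *Bag3* and *Hsp90aa1* climb in both AAI mice (*Hsph1* to 2.07 and 1.78), whereas *Hspa8* is highest in the uninjured InjuredPT-A columns, at 13.9 and 17.3.

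HSP70 was represented by cytosolic inducible, cytosolic constitutive and ER forms, and they behaved differently. The inducible copies *Hspa1a* (chr17:34969190-34972156, minus strand, 1 exon) and *Hspa1b* (chr17:34956436-34959238, minus strand, 1 exon) were barely seen. *Hspa1a* was listed at 0 in 14 of the 92 columns and reached 0.5 in 2, at 0.718 in Macrophage of the control mouse with AAI and 0.545 in LH-AL-3 of the uninjured hKLF6OE mouse, 2 columns with 63.4% of genes at 0 each. *Hspa1b* was listed at 0 in 24 columns and had its highest value of 0.464 in CD_PC, the collecting duct principal cells, of the uninjured hKLF6OE mouse. In InjuredPT-A with AAI, *Hspa1a* stood at 0.0126 in the control and 0.123 in the hKLF6OE mouse, against 0.0243 and 0.0337 in their normal PT. *Hspa1b* stood at 0.0544 and 0.139, against 0.0320 and 0.0356. Neither copy reached the minimum in any PT comparison, so neither was called.

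The constitutive HSP70, *Hspa8* (chr9:40800984-40810087, plus strand, up to 9 exons), which also uncoats clathrin vesicles, had the most regular pattern over mice. Its normal PT level was 2.99 in the control mouse, 2.47 in the control with AAI, 4.75 in hKLF6OE and 1.79 in hKLF6OE with AAI. The uninjured hKLF6OE mouse was the highest of the 4 in 23 of 23 clusters, as was the case for 0.304% of 4272 genes, and the hKLF6OE mouse with AAI was the lowest in 20. InjuredPT-A with AAI stood at 3.25 and 3.33, differences of 0.29 and 0.63 from normal PT. The smaller of these fell to 0.07 when the median difference of all genes (0.22 in the control and 0.16 in the hKLF6OE mouse) was subtracted. Against the normal PT of the uninjured mouse of the same genotype the differences were 0.09 in the control and -0.41 in the hKLF6OE mouse, so the direction turned in the latter.

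BiP, the ER form (*Hspa5*, chr2:34771970-34777547, plus strand, up to 9 exons), was at 0.930 in normal PT of the control mouse, 1.23 in the control with AAI, 1.46 in hKLF6OE and 1.21 in hKLF6OE with AAI. The control mouse alone was below 1. InjuredPT-A with AAI stood at 1.99 and 2.07, differences of 0.43 and 0.48, and InjuredPT-B at 1.03 and 1.22, differences of -0.13 and 0.00. *Hspa5* was called higher in InjuredPT-A in both mice and in InjuredPT-B in neither.

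Among HSP70's partners, *Hsph1* (chr5:149614287-149636376, minus strand, up to 19 exons), encoding HSP110, which exchanges nucleotide on HSP70 and helps dissolve aggregates, was level in normal PT and high in InjuredPT-A. Its normal PT values were 0.720, 0.652, 0.579 and 0.663 in the control, control with AAI, hKLF6OE and hKLF6OE with AAI mice. InjuredPT-B values were 0.740, 0.687, 0.690 and 0.669 in the same order. InjuredPT-A values were 0.669, 2.07, 0.900 and 1.78. Normal PT and InjuredPT-B values overlapped, and the AAI mice stood apart in InjuredPT-A, with differences from normal PT of 0.90 and 0.74. The next highest cluster was LH-AL-3 at 0.964 in the control and MC at 1.10 in the hKLF6OE mouse with AAI.

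The J-domain proteins *Dnaja1* and *Dnajb1* deliver clients to HSP70. *Dnaja1* (chr4:40722150-40737149, plus strand, up to 9 exons) was at 0.641, 0.525, 0.739 and 0.507 in normal PT of the control, control with AAI, hKLF6OE and hKLF6OE with AAI mice. InjuredPT-A with AAI stood at 1.02 and 1.08, differences of 0.40 and 0.46, and the smaller fell to 0.18 with the median of all genes subtracted. *Smu1* and a long noncoding RNA overlap this gene on the opposite strand. *Dnajb1* (chr8:83608193-83612653, plus strand, up to 3 exons), an HSF1 target and the best known partner of inducible HSP70, was listed at 0 in 19 columns. It stood at 0.0827 in normal PT and 0.325 in InjuredPT-A of the control mouse with AAI, too low to be called, and at 0.0560 and 0.575 in the hKLF6OE mouse, a difference of 0.58. It had its highest level in InjuredPT-A in 3 of the 4 mice; in the uninjured control mouse it was listed at 0 there.

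BAG3 (*Bag3*, chr7:128523616-128546981, plus strand, up to 4 exons) exchanges nucleotide on HSP70 and steers its clients to autophagy. Normal PT values were 0.271, 0.231, 0.229 and 0.209 in the control, control with AAI, hKLF6OE and hKLF6OE with AAI mice. InjuredPT-B values were 0.349, 0.543, 0.574 and 0.527, and InjuredPT-A values were 0.384, 0.751, 0.280 and 0.848. With AAI, *Bag3* was higher than in normal PT in InjuredPT-A (by 0.51 and 0.61) and in InjuredPT-B (by 0.33 and 0.34), and it was the only member called in InjuredPT-B in both mice. Its normal PT means were under the minimum too, so against normal PT it could be called only as higher. Its highest mean over the 4 mice was in LH-AL-1, an ascending limb cluster, at 0.603, 0.668, 0.867 and 0.743.

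Counted together, 7 of the 10 members could be compared between InjuredPT-A and normal PT in both AAI mice and all 7 were called higher, against 43.3% of 5008 genes. As *Hsp90aa1* and *Bag3* entered only through the side where they were high, the count is a description. In InjuredPT-B, 1 of 7 was called higher, against 23.4% of 4148 genes. Between the injured clusters, 5 of 7 were called higher in InjuredPT-A (*Hsp90aa1* by 0.82 and 1.20, *Hsph1* by 0.87 and 0.74, *Hspa5* by 0.56 and 0.47, *Hsp90ab1* by 0.34 and 0.70, *Dnaja1* by 0.21 and 0.42), against 30.6% of 4977 genes. The mitochondrial share of InjuredPT-A was 1.84% and 2.34% in the control and hKLF6OE mice with AAI, above every normal PT cluster of those mice (highest 1.59% and 1.43%). Its part in these differences was not tested.

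Across all 23 clusters, InjuredPT-A had the highest mean over the 4 mice for 6 members (*Hsp90aa1*, *Hsp90ab1*, *Hspa5*, *Hspa8*, *Hsph1* and *Dnajb1*). Over the AAI mice alone it was highest for 5, and these differed: *Hsp90aa1* (2.67), *Hsph1* (1.93), *Dnaja1* (1.05), *Bag3* (0.751 and 0.848 in the 2 mice) and *Dnajb1* (0.450). It was not highest in each mouse. In the control mouse with AAI, *Hsp90aa1* was higher in Macrophage (2.15) than in InjuredPT-A (1.99). In the hKLF6OE mouse with AAI, *Dnaja1* was higher in LH-AL-3 (1.22) than in InjuredPT-A (1.08). For *Hsp90ab1*, *Hspa5* and *Hspa8*, MC had the highest mean over the AAI mice, at 3.79, 2.53 and 5.22, and InjuredPT-A ranked 4, 3 and 4. MC also had the highest mitochondrial share of the 23 clusters in the control and hKLF6OE mice with AAI, 2.90% and 3.00%. The part of that share in these ranks was not tested. The stromal and endothelial clusters MC and EC-2 also stood among the top 3 clusters over the 4 mice for *Hsp90ab1* and *Hspa8*. The lowest means were in LH-AL-3 for *Hsp90aa1* (0.285) and *Hsp90ab1* (1.02), in DCT_CNT for *Hspa5* (0.898), in IC-B-2 for *Hspa8* (2.20), in Podocytes for *Hsph1* (0.306) and *Dnaja1* (0.364), and in IC-A for *Dnajb1*. For each member, all 22 pairs of neighbours in the order of clusters overlapped in their ranges over the 4 mice. These mice differ in genotype and treatment and are not replicates, so the overlap does not settle the order within a mouse. For *Hspa8*, Macrophage was above its neighbour InjuredPT-B in each of the 4 mice. The order between neighbours was not tested.

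**Figure D2:**
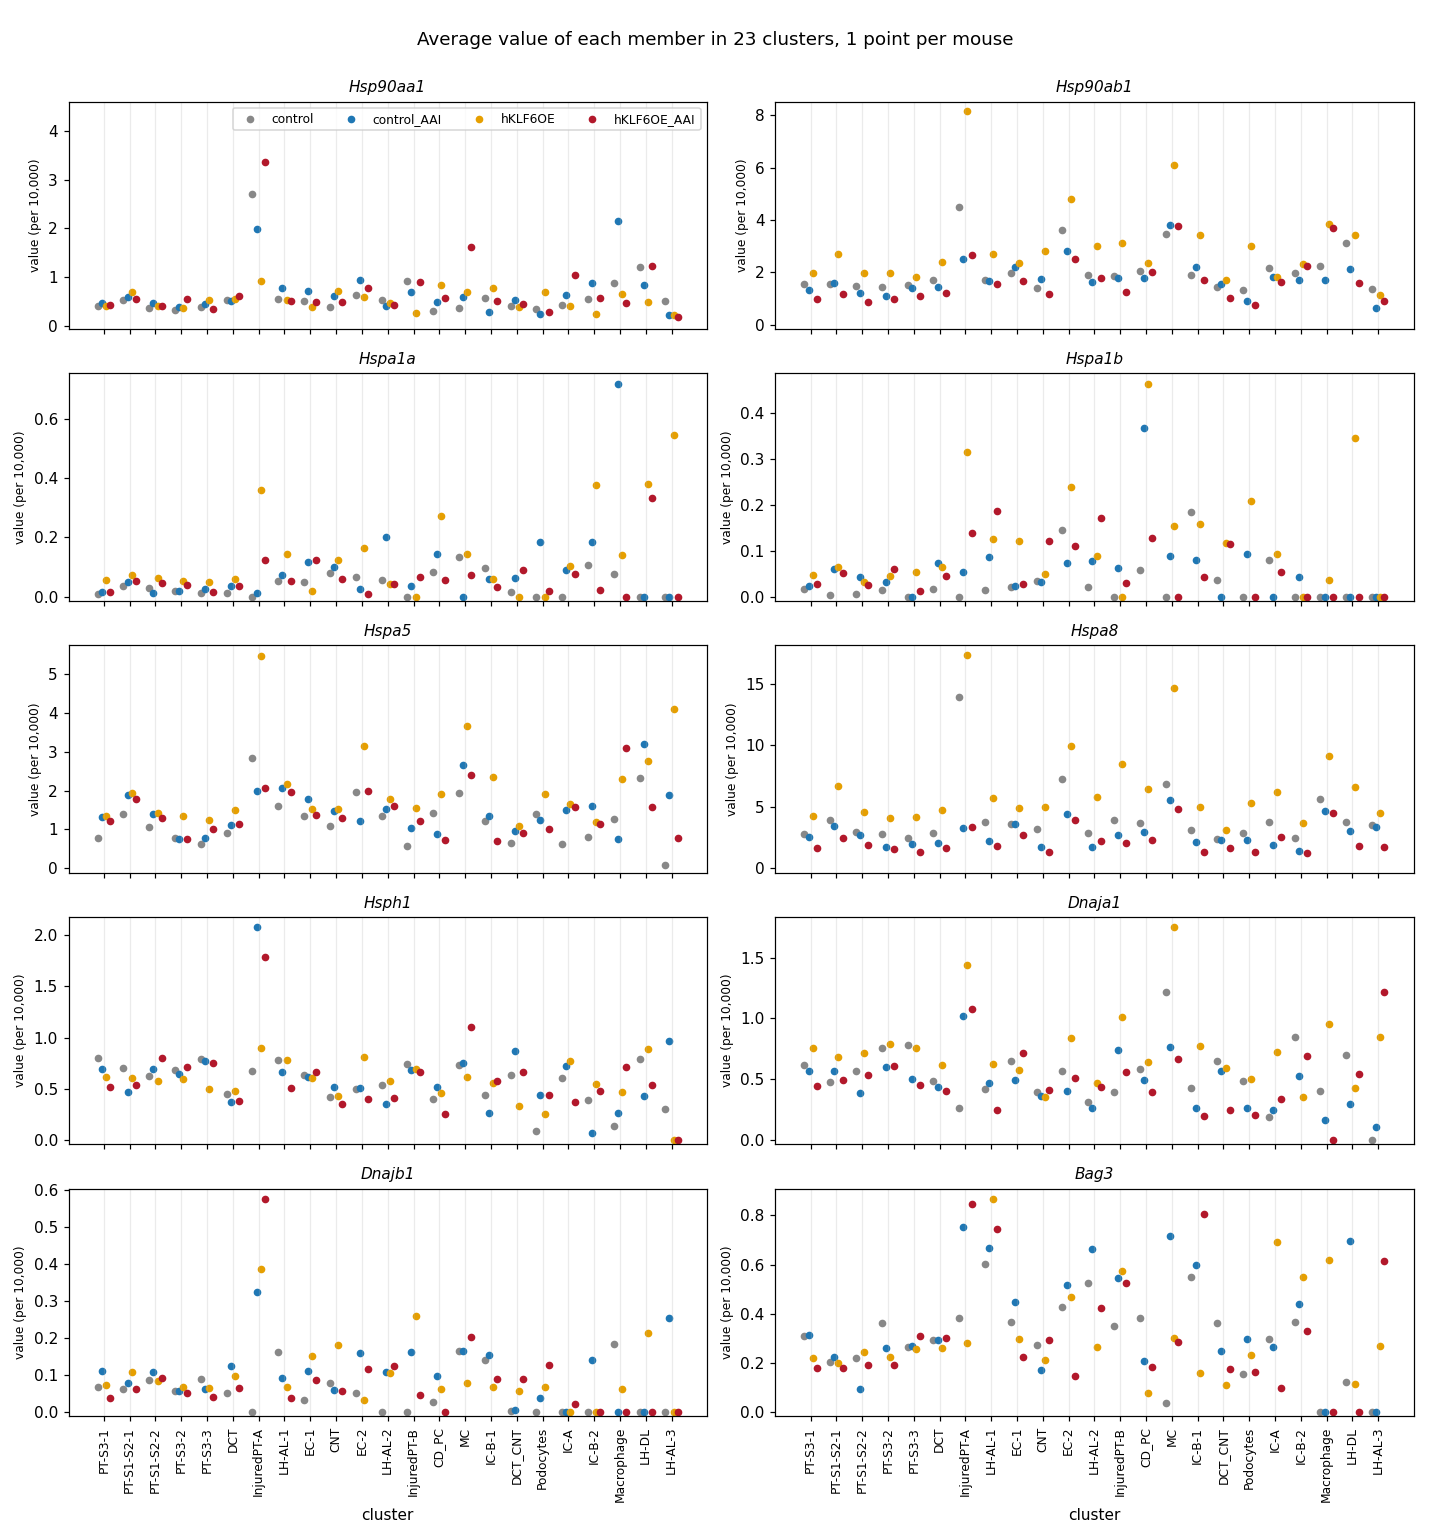
Average value per 10,000 (vertical axis) of each member in 23 clusters (horizontal axis), with 1 point per mouse, coloured by group. For *Hsph1* the AAI points in InjuredPT-A (2.07 and 1.78) stand above all others, and for *Hspa8* the uninjured hKLF6OE mouse is the highest point in every cluster.

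AAI itself was compared in normal PT, the proximal tubule clusters other than the injured ones. In the control mice, 1 of 5 members that could be compared was called in either direction, against 23% of 4052 genes. It was *Hspa5*, higher by 0.21 (0.930 and 1.23), and 11.7% of the genes were called higher. *Hspa8* missed the threshold at -0.20, and *Hsp90ab1* and *Dnaja1* both differed by -0.11. In the hKLF6OE mice none was called higher, against 19.5% of 4133 genes, and 3 were called lower, against 15.4%: *Hspa8* by -1.04 (4.75 and 1.79), *Hsp90ab1* by -0.61 (2.09 and 1.02) and *Dnaja1* by -0.21 (0.739 and 0.507). The stress-inducible members were not called in normal PT. *Hsph1* differed by -0.06 and 0.07 in the control and hKLF6OE mice, and *Hsp90aa1*, *Bag3*, *Dnajb1*, *Hspa1a* and *Hspa1b* stayed under the minimum in both genotypes.

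The lower *Hspa8* with AAI was not confined to proximal tubule. In the hKLF6OE mice it was called lower in 23 of 23 clusters, against 0.96% of 4272 genes, with a median difference of -1.14 and a range from -2.08 to -0.65. The lowest value was that of InjuredPT-A, and over the other 22 clusters the range was -1.65 to -0.65. In the control mice it was called lower in 17 clusters, with a median of -0.25. *Hsp90ab1* was called lower in 18 clusters of the hKLF6OE and 6 of the control mice, with medians of -0.59 and -0.14. The share of all genes reaching these counts of 17, 18 and 6 clusters was not computed. For *Hspa5* the medians had opposite signs, 0.23 in the control and -0.16 in the hKLF6OE mice. The medians of *Hsp90aa1*, *Hsph1*, *Dnajb1* and *Bag3* lay between -0.04 and 0.08 in both genotypes.

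**Figure D3:**
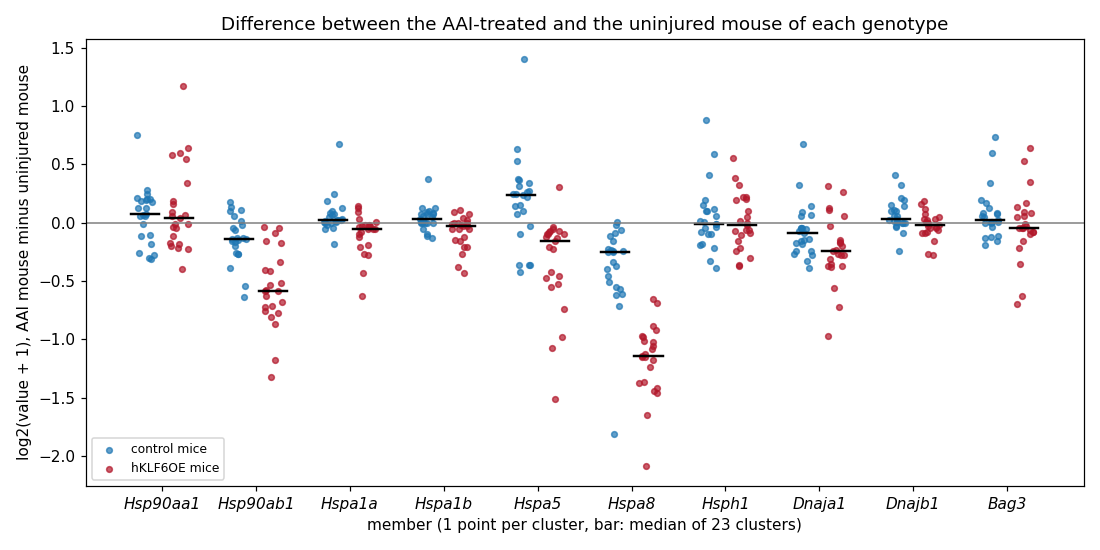
Difference in log2(value + 1) between the AAI mouse and the uninjured mouse of the same genotype (vertical axis) for each member (horizontal axis), with 1 point per cluster and a bar at the median of 23 clusters. All 23 points of *Hspa8* in the hKLF6OE mice lie below 0 (median -1.14), whereas those of *Hsph1* scatter around 0 (medians -0.01 and -0.02).

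KLF6 overexpression without injury was compared in the same clusters. In normal PT, 3 of 5 members were called higher in hKLF6OE than in control, against 7.84% of 4041 genes: *Hspa8* by 0.53 (2.99 and 4.75), *Hspa5* by 0.35 (0.930 and 1.46) and *Hsp90ab1* by 0.29 (1.52 and 2.09). None was called lower, against 9.33%. *Hsph1* differed by -0.12 and *Dnaja1* by 0.08. These 3 genes were also higher in most other clusters of the hKLF6OE mouse. It was the highest of the 4 mice for *Hsp90ab1* in 21 clusters, reached by 1.38% of 4272 genes, and for *Hspa5* in 19, reached by 3.04%. For *Hsph1*, *Hsp90aa1*, *Dnajb1* and *Bag3* it was highest in 6 clusters each. For *Dnaja1* and *Hspa1a* it was highest in 16 clusters each, and for *Hspa1b* in 13, with the values of both *Hspa1* copies near the floor. The share of all genes reaching 6, 13 or 16 clusters was not computed. This comparison and that of AAI in hKLF6OE share the uninjured hKLF6OE mouse, so that mouse enters both.

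With AAI, overexpression was compared in InjuredPT-A. Of 8 members, 2 were called higher in the hKLF6OE than in the control mouse, against 13.1% of 5253 genes: *Hsp90aa1* by 0.54 (1.99 and 3.35) and *Dnajb1* by 0.25 (0.325 and 0.575). *Dnajb1* reached the minimum in the hKLF6OE mouse only and could be called only as higher there. None was called lower, against 22.3% of genes. The other 6 differed by between -0.14 (*Hsph1*) and 0.08 (*Bag3*), and *Hspa8* (3.25 and 3.33) and *Hsp90ab1* (2.52 and 2.66) were nearly level. In normal PT of the same mice *Hspa8* and *Hsp90ab1* were called lower in hKLF6OE, by -0.32 and -0.21, and in InjuredPT-B by -0.29 and -0.30. The share of all genes called lower was not computed for either of these comparisons.

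The mitochondrial share moved with *Hspa8*, *Hsp90ab1* and, less, *Hspa5*, the members with the highest means over the 92 columns (3.91, 2.13 and 1.56). The other members had means of 0.643 or less, so abundance and type of member cannot be told apart here. Over the 92 columns, the correlation of log2(value + 1) with the log2 of that share was r = 0.93 for *Hspa8*, 0.84 for *Hsp90ab1* and 0.57 for *Hspa5*, and r = 0.94 for *Kap*. It was 0.34 for *Dnaja1*, 0.30 for *Hspa1b*, 0.28 for *Hsp90aa1*, 0.23 for *Hspa1a*, 0.17 for *Dnajb1*, 0.11 for *Hsph1* and 0.05 for *Bag3*. Leaving out the 2 uninjured InjuredPT-A columns gave 0.91 for *Hspa8* and 0.82 for *Hsp90ab1*. These columns share 4 libraries and each sums to the same total, so the values are descriptions, and the part of the mitochondrial share in the differences of *Hspa8* and *Hsp90ab1* between mice was not tested.

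**Figure D4:**
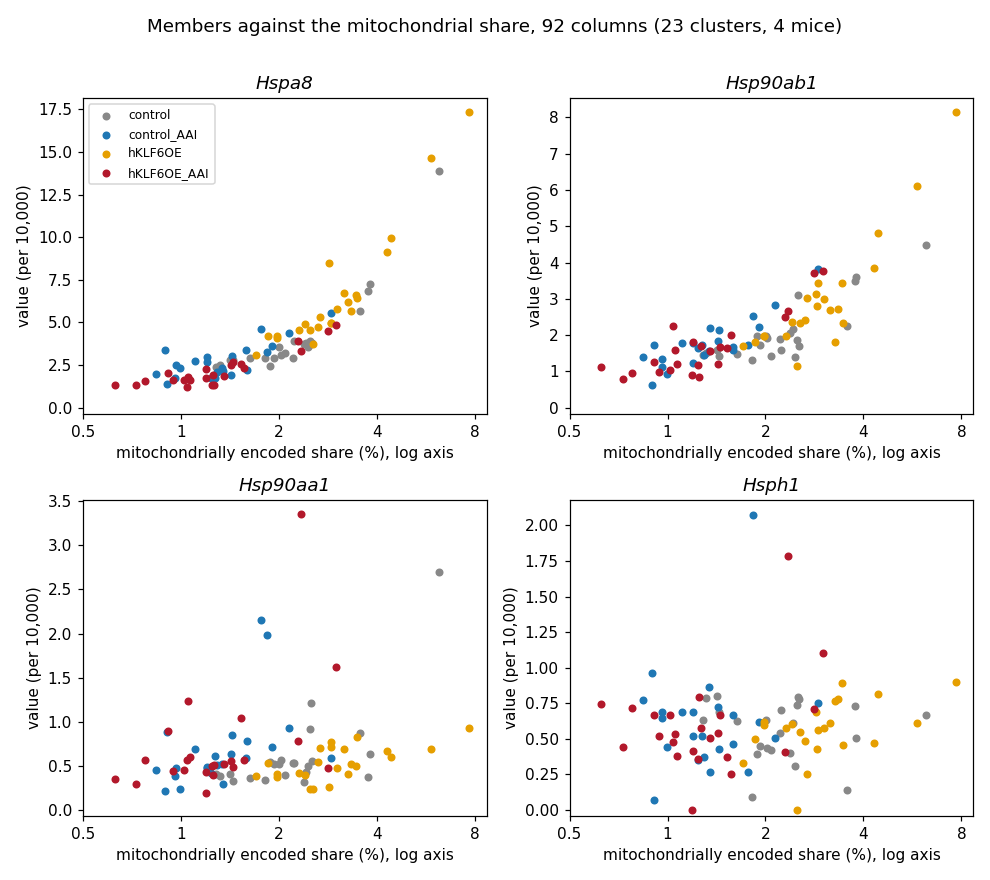
Average value per 10,000 (vertical axis) of 4 members against the percentage of the column from mitochondrially encoded genes (horizontal log axis), with 1 point for each of 92 columns, coloured by group. *Hspa8* (r = 0.93) and *Hsp90ab1* (r = 0.84) rise along the share, whereas the high InjuredPT-A points of *Hsp90aa1* and *Hsph1* stand off any line (r = 0.28 and 0.11).

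The genes most like each member over the 92 columns were sought among 4266 genes with a mean of at least 0.5. For *Hspa8* they were *Kap*, *mt-Co2* and *Prdx1* (r = 0.93 each), and for *Hsp90ab1* *Atp5b* (r = 0.90), *Kap* and *Pebp1* (r = 0.86 each). *Hspa5* was closest to the ribosomal protein genes *Rpl23* (r = 0.77) and *Rpl19* (r = 0.76) and to *Eef1a1* (r = 0.75). For the other members, all of lower mean value, the closest correlation was r = 0.75 or less. *Hsp90aa1* was nearest to *Tgoln1* (r = 0.75), *Atxn7l3b* and *Ppp2ca* (r = 0.66 each). *Hsph1* was nearest to *Spag5* (r = 0.62), the J-domain gene *Dnaja2* (r = 0.62) and *Ndufaf2* (r = 0.61). *Dnaja1* was nearest to *Nit1* (r = 0.63), *Rrm2b* (r = 0.61) and *Dbi* (r = 0.59), and *Dnajb1* to *2900097C17Rik* and *Eif3a* (r = 0.65 each) and *Timm17a* (r = 0.63). *Bag3* was nearest to *Ubxn2a* and the J-domain gene *Dnajb4* (r = 0.51 each) and to *Timm23* (r = 0.49). *Hspa1b* was nearest to *Aqp3* (r = 0.55) and *Aqp2* (r = 0.52), water channels of collecting duct principal cells, and to *Rpl26* (r = 0.49). *Hspa1a* was nearest to *Rbbp7* (r = 0.58) and to *Manf* (r = 0.53) and *Ppib* (r = 0.51), which serve folding in the ER.

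Other chaperone genes were counted in InjuredPT-A against normal PT in both AAI mice, with the number compared given first. Of all 5008 genes compared, 2167 were higher and 1350 lower, and the median difference was 0.19 in the control and 0.15 in the hKLF6OE mouse. Of 10 HSP90 relatives and co-chaperones, 7 were higher and 1 lower (medians 0.51 and 0.37). The largest were *Ptges3*, encoding p23, which closes the HSP90 clamp (0.68 to 2.93 in the control mouse, a difference of 1.22, and 1.10 in the hKLF6OE mouse), *Cdc37*, which loads kinases (1.08 and 0.88), and *Ppid* (0.80 and 0.55). *Fkbp5*, a glucocorticoid-induced immunophilin, was lower (-0.87 and -0.59). Of 3 HSP70 relatives, 3 were higher: *Hspa4*, an HSP110-type exchange factor (0.89 and 0.54), *Hspa9*, the mitochondrial HSP70 (0.63 and 0.55), and *Hspa14* (0.71 and 0.43).

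Of 15 J-domain genes, 10 were higher and 3 lower (medians 0.35 and 0.47). *Dnajc5*, the cysteine string protein of exocytic vesicles, went from 1.74 in normal PT to 7.74 in InjuredPT-A of the control mouse (difference 1.67, and 1.43 in the hKLF6OE mouse), and *Dnajb4* from 0.442 to 2.87 (1.43 and 1.49). The next was *Dnaja3*, a mitochondrial J-domain protein (0.77 and 0.69). *Dnajc6*, encoding the clathrin-uncoating cofactor auxilin, was lower (-1.03 and -0.97). Of 3 nucleotide exchange factors, *Bag1* (0.43 and 0.47) and *Grpel1* (0.44 and 0.40) were higher and *Sil1*, the exchange factor of BiP, was lower (-0.91 and -1.03). Among the heat shock factors, *Hsf1* stood at 0.320 and 0.380 in InjuredPT-A and 0.236 and 0.212 in normal PT of the control and hKLF6OE mice with AAI, under the minimum, as did *Hsf2*. *Hsbp1*, whose product binds HSF1 and restrains it, was higher (0.64 and 0.74). Of the small heat shock proteins only *Cryab* reached the minimum in both mice (0.23 and 0.32).

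Of 18 ER chaperone and unfolded protein response genes, 10 were higher and 2 lower (medians 0.38 and 0.40). The largest were *Atf4*, the transcription factor of the integrated stress response (1.53 and 2.44), *Pdia3*, a disulfide isomerase (1.11 and 0.85), and *Canx*, a lectin chaperone (0.87 and 0.77). *Herpud1*, which serves ER-associated degradation, was the furthest below normal PT (-0.71 and -0.60). Of 10 mitochondrial chaperones and proteases 7 were higher, led by *Hspd1*, encoding HSP60 (1.02 and 0.83), followed by *Dnaja3* and *Hspa9*, given above. All 5 subunits of the TRiC chaperonin that passed the filter were under the minimum in normal PT of both mice. They could therefore be called only as higher, and all 5 were (medians 0.47 and 0.40). The largest differences were those of *Cct3* (0.68 and 0.48), *Tcp1* (0.47 and 0.40) and *Cct7* (0.38 and 0.50). Of 23 ubiquitin and proteasome genes, 18 were higher (medians 0.43 and 0.56), led by the proteasome subunit genes *Psmd11* (0.91 and 0.90), *Psma3* (0.89 and 0.93) and *Psmd7* (0.86 and 1.10). Of 9 immediate early genes, 8 were higher (medians 0.63 and 1.29), led by *Junb* (1.44 and 1.85), *Btg2* (1.21 and 1.64) and *Zfp36* (1.18 and 2.02). None of the mitochondrial, proteasome or immediate early genes was called lower in both mice. Some genes stand on more than 1 of these lists, and genes low in normal PT could be called only as higher. In InjuredPT-B, where 23.4% of 4148 genes were called higher, 2 of 9 HSP90 relatives and co-chaperones, 3 of 12 J-domain genes and 4 of 14 ER genes were higher, shares near that of all genes. Higher there were also 3 of 3 HSP70 relatives, 3 of 6 mitochondrial genes, 8 of 14 ubiquitin and proteasome genes and 5 of 6 immediate early genes, and 0 of 1 exchange factor.

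**Figure D5:**
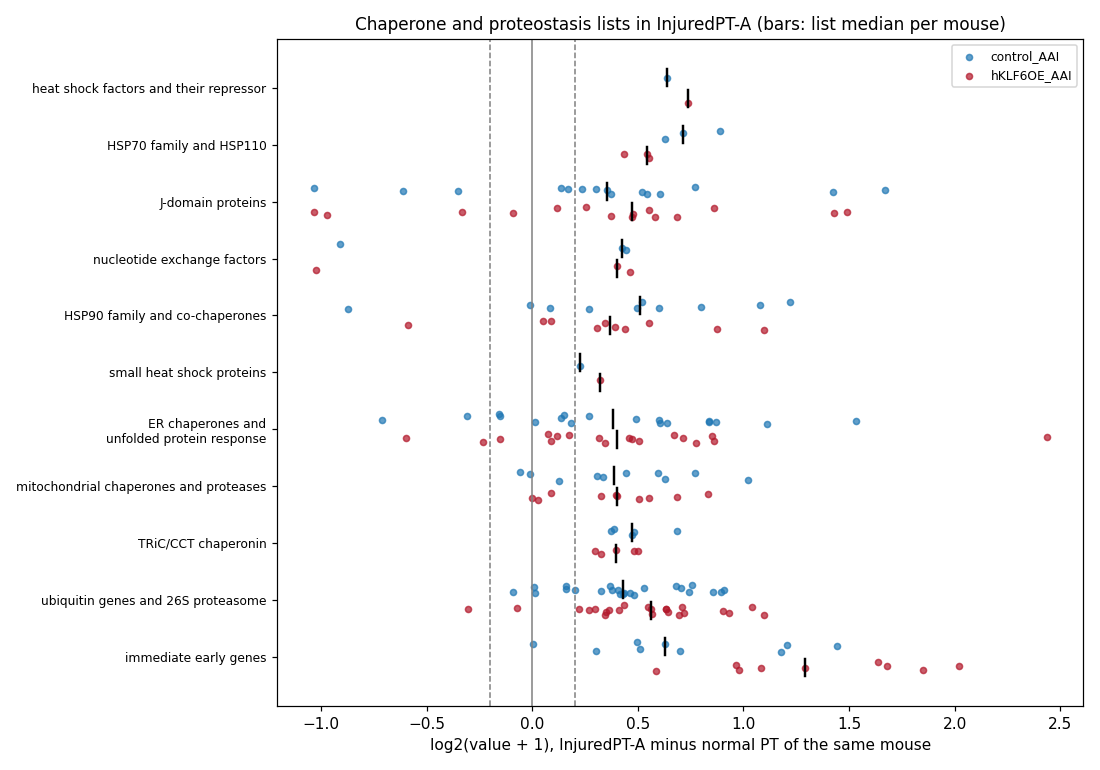
Difference in log2(value + 1) between InjuredPT-A and normal PT of the same AAI mouse (horizontal axis) for genes of 11 lists (vertical axis) that could be compared in both mice, with 1 point per gene and mouse, a black bar at the list median and dashed lines at the threshold of 0.2. List medians lie between 0.23 and 1.29, against 0.19 and 0.15 for all genes.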

How the data were processed

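Nuclei from kidney cortex of 4 mice, 1 per group, were sequenced by the authors with the 10x Chromium system. Per the study's methods all samples were prepared together, reads were counted with Cell Ranger against a mouse pre-mRNA reference (mm10), and Seurat kept nuclei with 200 to 6000 genes and at most 10% mitochondrial reads. The methods name no doublet filter for the RNA libraries. The deposited values are signal: for each gene the mean normalised expression of a cluster in a mouse, on a scale that sums to 10000 per column. Neither nuclei per average nor counts are in this table, so the depth behind each value is unknown and no interval was computed.

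Of 19632 rows, 23 with date-like names (gene symbols altered by spreadsheet software) were left out. The clusters are numbered in the table, and names follow the order of the study's marker lists, checked here against marker genes. Names are less sure for clusters without such a list, and Macrophage also held endothelial markers. The fibroblast markers *Col1a1*, *Col1a2* and *Dcn* were highest in MC. Of the mesangial markers, *Csmd1*, *Pdgfrb* and *Notch3* were highest in MC, but *Itga8* and *Gata3* were highest in other clusters.

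Differences are log2(value + 1) with a pseudocount of 1, called at 0.2 or more where the larger value was at least 0.5. All genes were compared alike. With 1 mouse per group no test was run. The calling was checked on simulated data. The members and the 11 gene lists were chosen with earlier results of these data known. The text names all 10 members, the top 3 and the lowest gene of a list by the smaller of the differences in the 2 AAI mice, and the 3 genes nearest to a member by Pearson correlation. Alternatives were pseudocounts, filters, thresholds, centring, reference clusters and each mouse alone. Gene positions came from GENCODE for GRCm38 and promoter windows from RefSeq. Python 3.11.15, numpy 2.4.6, pandas 2.3.3, Biopython 1.88 and matplotlib 3.10.9 were used.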

Additional observations from a re-analysis of the deposited data

Results flagged for a closer look

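In 10 cases a member's level with AAI was above that of the uninjured mouse in one genotype and below it in the other, by 0.2 or more each way on the log2(value + 1) scale, with the larger value at least 0.5 in both genotypes. With 1 mouse per group the difference between genotypes was not tested. The share of all genes meeting this rule was not computed, so the count cannot be read as particular to the members. In InjuredPT-A, *Hsp90aa1* differed by -0.31 in control and 1.18 in hKLF6OE, 1.48 apart, and *Dnaja1* by 0.68 and -0.23, -0.91 apart; both set AAI columns against uninjured columns in which 62.6% and 40.8% of genes were at 0. In InjuredPT-B, *Hspa5* (0.36 and -0.21) was -0.57 apart and *Dnaja1* (0.32 and -0.37) was -0.69 apart, with 51.3% and 55.7% of genes at 0 in the uninjured columns. *Hspa5* also differed in opposite directions in MC (-0.77 between genotypes), Macrophage (0.67), LH-DL (-0.89) and LH-AL-3 (-2.92). The LH-AL-3 value rests on 0.0937 in the uninjured control mouse, and all 4 columns of that cluster had over 60% of genes at 0. *Hsp90aa1* in LH-DL (0.84) and *Dnaja1* in IC-B-2 (0.59) complete the cases. None lay in a normal PT cluster.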

How the results depend on the processing

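No paired analysis was possible because the groups share 1 replicate number, with 1 mouse each, and injured and normal PT are set against each other within each AAI mouse. With the larger value required to be at least 2, the members called were 2 for InjuredPT-A higher than normal PT, 0 for InjuredPT-B, 1 for InjuredPT-A higher than InjuredPT-B, 0 for higher with AAI in normal PT of control, and 1 for higher in hKLF6OE in InjuredPT-A. In InjuredPT-A higher than normal PT, 35.7% of all genes were then called. At a threshold of 0.5 these counts were 4, 0, 2, 0 and 1, and 1 member was higher in uninjured hKLF6OE (InjuredPT-A higher: 19.8% of all genes). At a threshold of 1 they were 1, 0, 0, 0 and 0, with 0 higher in uninjured hKLF6OE and 1 lower with AAI in hKLF6OE (InjuredPT-A higher: 3.83% of all genes).

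With a pseudocount of 0.1, 3 members were higher in InjuredPT-B, 2 lower with AAI in control normal PT, 1 lower in uninjured hKLF6OE normal PT and 1 lower in hKLF6OE InjuredPT-A. With the PT-S3 clusters alone as normal PT, 3 were higher in InjuredPT-B, 0 higher and 1 lower with AAI in control. Against the uninjured mouse 2 were higher in InjuredPT-B, as in the control_AAI mouse alone (2) and the hKLF6OE_AAI mouse alone (2), and the latter had 8 higher in InjuredPT-A than InjuredPT-B. Centring on the median of all genes left 1 lower with AAI in control, as did leaving out the mitochondrially encoded genes (1), an alternative chosen after seeing the data. The cause of these shifts was not tested. Apart from the shares given for InjuredPT-A, the shares of all genes called under each setting are not given here. A shift in a count therefore cannot be read as particular to the members. The other 64 counts stayed within 1.5 times the reported one. Of 41 called differences of members, taken mouse by mouse, 1 changed sign under the other filters, pseudocount, scalings and references, that of *Hspa8* in InjuredPT-A of the hKLF6OE mouse with AAI (0.63, and -0.41 against the uninjured mouse).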
